A study of Brassica oleracea with 107 samples.

Results

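Endosperm with seed coat of Brassica oleracea, a seed crop species that includes cabbage, was compared between the groups of day 15 at 26 °C (warm) and at 16 °C (cool). The comparison takes every gene of the deposited endosperm table that reached 1 TPM in at least 1 of the 2 groups, which is 12195 of the 16338 listed genes. TPM is a measure of abundance per gene length in which the genes of a library add up to 1000000. Each of these 2 groups has 3 libraries, as have all others except endosperm at 16 °C on day 18, which has 2. The table gives 1 TPM value per group. No difference below therefore has a replicate check, an SD or a p-value, and read depth is unknown.

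The study sequenced RNA from 107 libraries in 36 groups, 45 libraries of embryo and 62 of endosperm, to follow the transcriptome of both tissues under different temperatures. All plants grew at 21 °C until bolting and then at 16 °C until the embryo was at the bent-cotyledon stage, after which they stayed at 16 °C or were moved to 26 °C, per the labels. The sources used here do not say from which event day 15 is counted, which plant variety was grown or how many plants gave a library. Endosperm and seed coat were dissected together, away from the embryo, and both day 15 groups were made with the Ovation library kit, as were days 7, 18 and 22. Days 0 to 3, a further endosperm series labelled in hours and all embryo libraries used a standard kit, so temperature differences were taken only between groups of the same tissue, kit and time, and courses only within days 7 to 22. Levels set across kits are marked as such.

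The endosperm is the tissue of the seed that nourishes the embryo. In Brassica relatives such as Arabidopsis, most of it is consumed as the embryo fills the seed, and a thin living layer remains under the seed coat. The seed coat is maternal tissue, and together with the endosperm it restrains germination in Arabidopsis. Warmth during seed filling is known to hasten maturation in many crops. In whole dissected tissue, fewer cells of a type and less RNA per cell cannot be told apart.

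The genes carry identifiers of the form Bo9g026030. The deposited tables pair none of them with a gene name, and none of the 19732 identifiers of both tables matched the 53125 genes of the RefSeq table at hand. No gene is therefore given a function, and no sequence is shown. For the same reason the tissue labels were not checked against marker genes.

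On day 15, 1755 genes were at least 2-fold higher at 26 °C and 1305 were at least 2-fold lower, on the log2(TPM + 1) scale. These are 14.4% and 10.7% of the genes tested, 25.1% together. The other 9135 genes lay within 2-fold. The median log2 difference over all 12195 genes was 0.01, and the middle part of the genes, between the lower and upper quartile, ran from -0.51 to 0.59. Large differences were more often upward: 507 genes were 4-fold higher and 222 were 4-fold lower. The upper tail was also longer, with a 95th percentile of 3.77 among the higher genes and a 5th percentile of -2.87 among the lower genes. The excess of higher genes depended on the scaling. When the medians of the 2 groups were set equal, a shift of 0.12 on the log2 scale chosen after seeing the data, 1483 genes were higher and 1638 lower.

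**Figure D1:**
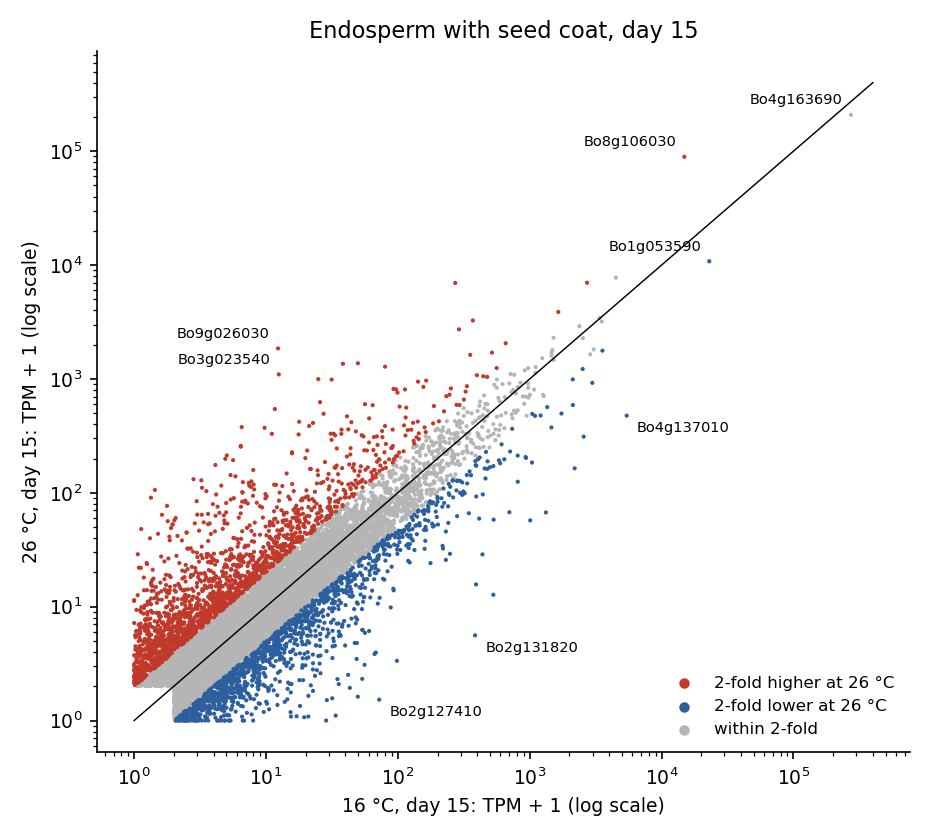
Abundance of each of the 12195 genes in endosperm at 16 °C (horizontal) and 26 °C (vertical) on day 15, as TPM + 1 on log axes; the line marks equality and each point is 1 gene. The 1755 genes in red lie at least 2-fold above the line and the 1305 in blue at least 2-fold below it, and the named genes are those with the largest differences and some of the most abundant.

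The higher genes gained a larger share of TPM than the lower genes lost. The same 2 groups chose the sets, so the direction of both changes was fixed and only their size is informative. At 16 °C the 1755 higher genes held 4.34% of all TPM, and at 26 °C they held 21.1%. The 1305 lower genes held 11.5% at 16 °C and 3.84% at 26 °C, and the genes within 2-fold held 53.7% and 46.7%. A large part of the gain was a single gene, Bo8g106030. Without it the other 1754 higher genes went from 2.85% to 12.2% of TPM.

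Bo8g106030 was the third most abundant gene at 16 °C and the second at 26 °C, with 14890 TPM and 89307 TPM, a log2 difference of 2.58. On day 7 it was at 9254 TPM cool and 12061 TPM warm. On day 18 it was at 18951 TPM at 16 °C, 90480 TPM in the group labelled 26 °C and 39252 TPM in the group labelled recovery, which was moved from 26 °C to 16 °C. On day 22 it was at 26902 TPM cool and 25189 TPM warm, so the temperatures were apart on days 15 and 18 and close on days 7 and 22. The most abundant gene at either temperature, Bo4g163690, was at 273110 TPM cool and 208838 TPM warm, a log2 difference of -0.39. It alone held 27.3% of all TPM at 16 °C and 20.9% at 26 °C.

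Among the other genes in the top 5 at either temperature, Bo1g053590 was at 22988 TPM cool and 10792 TPM warm. Bo4g137010 was at 5435 TPM and 475 TPM, the largest deficit of these genes, with a log2 difference of -3.51. Bo5g034220 went the other way, at 2718 TPM cool and 6993 TPM warm. Bo5g004180, at 4502 TPM and 7747 TPM, stayed within 2-fold. The 10 most abundant genes of each group together held similar shares, 33.7% of TPM at 16 °C and 34.4% at 26 °C.

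Genes of high abundance passed 2-fold more often than the rest. Of the 676 genes with a mean of 100 TPM or more over both groups, 141 were higher and 111 lower, which is 37.3%. Between 20 and 100 TPM the share was 24.9%, between 5 and 20 TPM it was 24.3% and between 1 and 5 TPM it was 24.2%. The log2(TPM + 1) scale compresses differences of genes with low values, so the low classes are understated. At the edge of the 1 TPM limit, none of the 96 genes that reached 1 to 1.05 TPM and none of the 90 genes that stayed at 0.95 to 1 TPM was 2-fold apart, since the scale does not allow it there.

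The largest excess at 26 °C was that of Bo9g026030, at 11.4 TPM cool and 1853 TPM warm, a log2 difference of 7.23. At 16 °C this gene was at 3.05 TPM on day 7, 6.57 TPM on day 18 and 246 TPM on day 22. At 26 °C it was at 72.9 TPM on day 7, 2147 TPM on day 18 (3337 TPM in recovery) and 1538 TPM on day 22. The 26 °C value was thus the higher of the pair on each of the 4 days, and every 26 °C value from day 15 on exceeded the highest 16 °C value. Bo3g023540 came next, at 11.5 TPM cool and 1095 TPM warm, a log2 difference of 6.45. At 16 °C it stayed between 7.09 and 11.5 TPM on days 7 to 18 and reached 154 TPM on day 22. At 26 °C it was at 99.5 TPM on day 7, 799.6 TPM on day 18 (608 TPM in recovery) and 193 TPM on day 22, so the temperatures had nearly met by day 22.

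The largest deficit was that of Bo2g131820, at 384 TPM cool and 4.60 TPM warm, a log2 difference of -6.10. This gene declined over time at both temperatures. At 16 °C it was at 3252 TPM on day 7, 145 TPM on day 18 and just 52.6 TPM on day 22. At 26 °C it was at 1034 TPM on day 7, 2.27 TPM on day 18 (2.66 TPM in recovery) and 1.61 TPM on day 22. Even its 16 °C value of day 22 was above the 26 °C value of day 15. Bo2g127410 differed in its timing. It was at 209 TPM cool and 202 TPM warm on day 7, and at 71.1 TPM and 0.53 TPM on day 15, a log2 difference of -5.56. On day 22 it was at 6.75 TPM at 16 °C and listed at 0 at 26 °C, so its separation appeared between days 7 and 15.

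**Figure D2:**
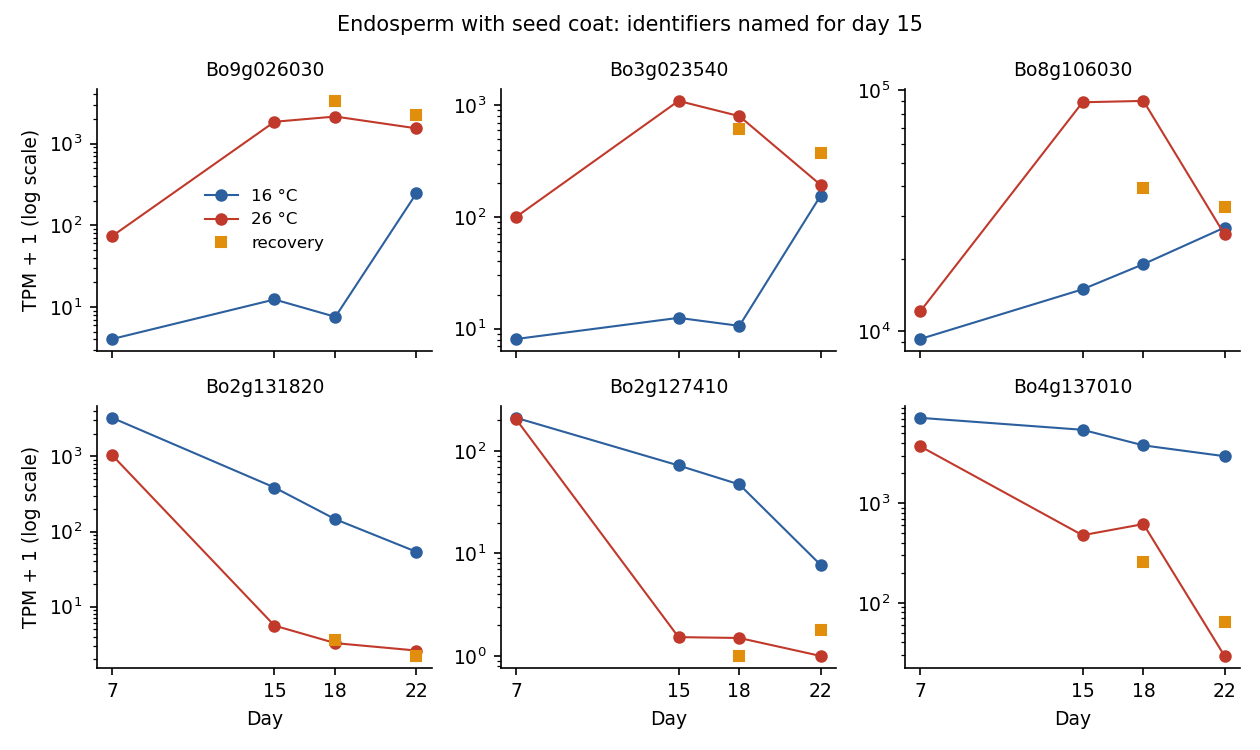
TPM + 1 on a log axis against day for 6 identifiers in endosperm of days 7 to 22, at 16 °C (blue), 26 °C (red) and in recovery (orange squares, moved from 26 °C to 16 °C); each point is the authors' value for a group. The upper row holds genes higher at 26 °C on day 15 and the lower row genes lower at 26 °C, with Bo9g026030 at 1853 against 11.4 TPM and Bo2g131820 at 4.60 against 384 TPM.

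Complete absence on one side was rare. Of the tested genes, 14 were listed at 0 at 16 °C and 35 at 26 °C, and few of these were abundant in the other group. The 3 genes listed at 0 at 16 °C and at 5 TPM or more at 26 °C were Bo8g092330 at 10.4 TPM, Bo4g194310 at 10.2 TPM and Bo03773s010 at 6.19 TPM. The 4 genes with the reverse pattern were Bo4g039210 at 27.6 TPM, Bo1g010690 at 6.99 TPM, Bo5g034450 at 5.82 TPM and Bo4g004670 at 5.66 TPM. These 7 were picked after their values were seen. The 16 °C values of Bo1g010690 on days 7, 15, 18 and 22 were 60.2, 6.99, 3.06 and 0.54 TPM, lower on each later day.

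Comparing each temperature with its own day 7 shows where the day 15 gap arose. At 16 °C days 7 and 15 differed little, with 359 genes (2.94%) 2-fold higher on day 15 and 545 (4.47%) lower. At 26 °C the same interval separated 895 genes upward (7.34%) and 2081 downward (17.1%). Of the 1755 genes higher at 26 °C on day 15, 738 (42.1%) were higher than on day 7 at 26 °C, while 82 (4.67%) were lower than on day 7 at 16 °C. Of the 1305 lower genes, 849 (65.1%) were lower than on day 7 at 26 °C and 40 (3.07%) were higher than on day 7 at 16 °C. These counts use the day 15 groups that also chose the genes and are given as a description.

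Part of the gap was already present on day 7. For the higher genes the mean log2 difference of day 15, 1.83, is the sum of a day 7 difference of 0.92 and a change at 26 °C of 0.99, less a change at 16 °C of 0.08. For the lower genes the mean of -1.59 is made of a day 7 difference of -0.43 and a change at 26 °C of -1.36, less a change at 16 °C of -0.19. Over all tested genes the same 4 means were 0.08, 0.23, -0.26 and -0.11, so the day 7 values of both sets include a general upward difference. Day 7 was measured in other libraries than day 15. There, 679 of the higher genes (38.7%) were already 2-fold higher at 26 °C and 9 were lower, where 11.7% and 3.65% of all tested genes were higher and lower. Of the lower genes, 251 (19.2%) were already lower and 37 higher. A gene below 1 TPM at 16 °C cannot be 2-fold lower on the log2(TPM + 1) scale, where 1 TPM is 1. On day 7 the 16 °C lower quartile was 0.89 for the higher genes and 1.98 for all tested genes. The low number of higher genes that were lower on day 7 is thus partly built in.

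Few genes crossed over between the days. Among the 9 genes that went from lower on day 7 to higher on day 15 in the warm group, the largest day 15 difference was that of Bo5g141570. It was at 4.08 TPM cool and 1.21 TPM warm on day 7, and at 5.08 TPM and 38.1 TPM on day 15. Its 26 °C value went on to 86.2 TPM on day 18 (168 TPM in recovery) and reached 136 TPM by day 22. It had been lower at 26 °C on days 1 and 3 as well, at 3.23 against 13.4 TPM and at 1.84 against 6.12 TPM. Bo7g056160, the next, went from 0.22 against 1.64 TPM on day 7 to 8.30 against 0.92 TPM on day 15. Among the 37 crossing the other way, Bo9g069620 was at 23.5 TPM warm and 10.95 TPM cool on day 7, and at 1.03 TPM and 7.81 TPM on day 15. Bo3g041720 went from 20.9 against 8.66 TPM to 6.68 against 31.5 TPM.

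**Figure D3:**
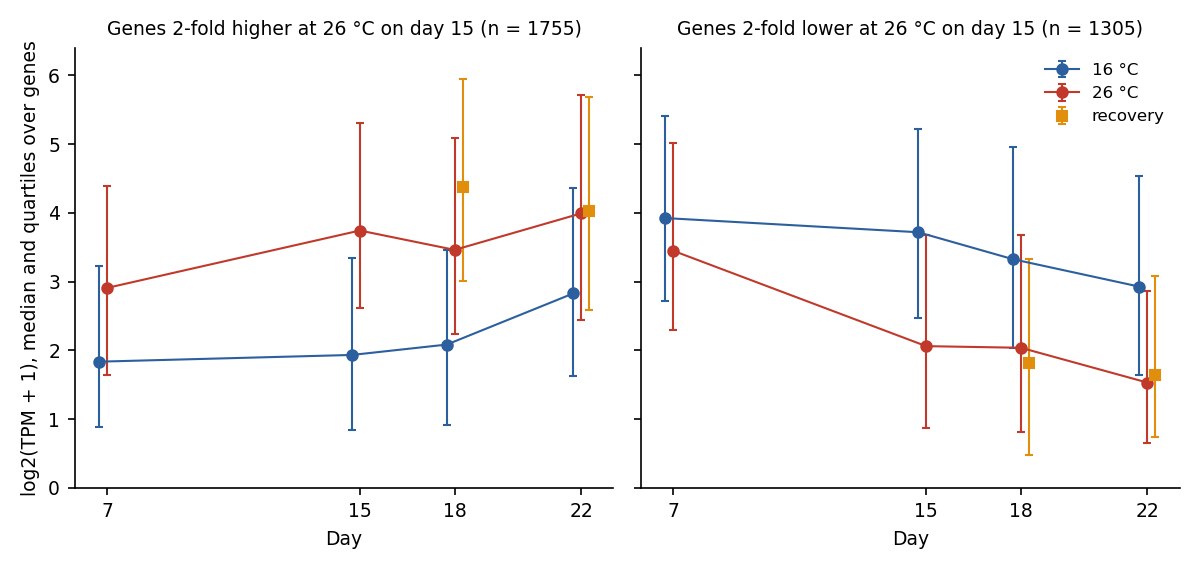
Abundance on the log2(TPM + 1) scale of the 1755 genes higher (left) and the 1305 genes lower (right) at 26 °C on day 15, followed over days 7 to 22; points are medians and bars quartiles over genes, not errors, and colours are temperature groups. The day 15 points chose the genes; at 16 °C the median of the higher genes went from 1.83 on day 7 to 2.83 on day 22, and that of the lower genes from 3.92 to 2.93.

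The 26 °C group of day 15 was set against every other endosperm group of days 7 to 22, by the number of genes 2-fold apart. These numbers use the values as deposited and were not recomputed with other scalings. The nearest by this count was the 16 °C group of day 22, with 1677 genes (13.8%). At 16 °C the number fell step by step with later days, from 3650 on day 7 (29.9%) to 3060 on day 15, 2761 on day 18 (22.6%) and 1677 on day 22. The day 18 group labelled 26 °C was the next nearest, at 1833 genes (15%), while that labelled recovery stood at 3725 (30.5%). The order of the nearest pair turned with the measure, since the root mean square of the log2 differences was 0.715 for the day 18 group labelled 26 °C and 0.723 for 16 °C on day 22. The 26 °C group of day 22 was the farthest, at 4947 genes (40.6%). The day 15 endosperm at 26 °C was therefore nearer to endosperm kept at 16 °C until day 22 than to either its own day at 16 °C or the later 26 °C group of day 22, as far as 1 value per group shows.

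**Figure D4:**
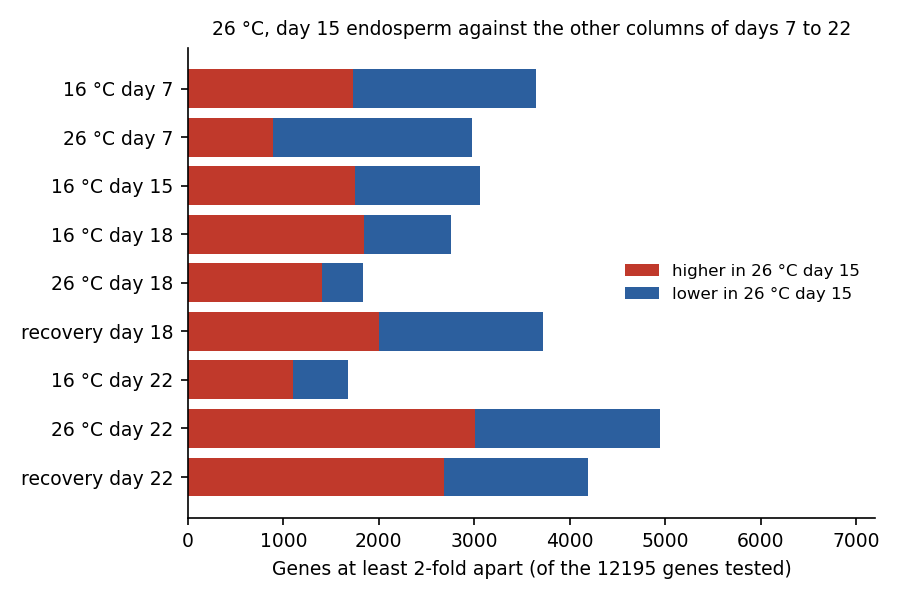
Number of the 12195 genes at least 2-fold apart between 26 °C day 15 endosperm and each other group of days 7 to 22, split into genes higher (red) and lower (blue) in the 26 °C day 15 group. The shortest bar is 16 °C day 22 with 1677 genes and the longest 26 °C day 22 with 4947.

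The 16 °C course of days 7 to 22, which uses neither day 15 group, ran the same way for many of these genes. Of the 1755 higher genes, 668 (38.1%) at 16 °C were 2-fold above day 7 on day 22 and 49 were below, where 8.73% and 13.4% of all tested genes were higher and lower. Of the 1305 lower genes, 618 (47.4%) were lower on day 22 and 39 higher. At 16 °C, 67.7% of the higher genes had their highest value of the 4 days on day 22, against 22.5% of all tested genes. For the lower genes the highest 16 °C value was on day 7 in 57.6%, against 49.7% of all tested genes. Unlike the counts of day 22 against day 7, these shares include the 16 °C group of day 15, which helped choose the genes. The highest value was on day 15 in 2.39% of the higher genes, 30.2% of the lower genes and 18.7% of all tested genes. The shares of highest values are therefore partly set by the choice of genes.

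Some day 15 values at 26 °C lay outside the range of the 16 °C values of days 7 to 22. For 600 genes (4.92% of those tested, 34.2% of the higher genes), the 26 °C value of day 15 was 2-fold above the highest 16 °C value of days 7 to 22. For 314 genes (2.57%, or 24.1% of the lower genes) it was 2-fold below the lowest. By comparison, 2 genes at 16 °C on day 15, an inner day of the course, lay 2-fold above all other 16 °C groups and none below. At the ends of the course, 363 genes were above and 267 below on day 7, and 418 were above and 168 below on day 22. The 4 identifiers with the largest differences, Bo9g026030, Bo3g023540, Bo2g131820 and Bo2g127410, were all outside the 16 °C range. The same day 15 values picked them, so this is given as a description. The 600 genes had a median of 4.15 on the log2(TPM + 1) scale at 26 °C on day 15, against 2.69 at 16 °C on day 22. Their 16 °C median was 1.49 on day 7 and 1.77 on day 18, so it was still changing on the last day. Whether 16 °C values would reach those of 26 °C after day 22 was not measured. On day 22 at 26 °C, in a group not used to pick them, their median was 3.94.

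Later groups kept most of the direction of day 15. Before they are given, the labels of day 18 need a caution. The day 18 group labelled recovery differed from 16 °C in 5570 genes and the group labelled 26 °C in 3269, and the group labelled recovery was also the nearer of the 2 to the 26 °C group of day 22, at 2435 against 4653 genes. Both day 18 groups are therefore given in the counts that follow. Both are set against the 16 °C group of day 18, which has 2 libraries.

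On day 18, 1023 (58.3%) of the 1755 higher genes were 2-fold higher in the group labelled 26 °C than at 16 °C, where 12.6% of all tested genes were. In the group labelled recovery the number was 1350 (76.9%), with a background of 25%. Of the 1305 lower genes, 770 (59.0%) were lower in the group labelled 26 °C, with a background of 14.2%. In the group labelled recovery 845 (64.8%) were lower, with a background of 20.7%. Fewer than 40 genes of either set had crossed to the other side in either group: 27 and 26 of the higher genes, and 11 and 36 of the lower genes. As on day 7, some higher genes were too low at 16 °C to be called lower. Their 16 °C lower quartile on the log2(TPM + 1) scale was 0.92, against 1.66 for all tested genes.

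On day 22, 891 of the higher genes (50.8%) were still higher at 26 °C than at 16 °C and 178 (10.1%) were lower, with a background of 22.3% and 23.0%. Of the lower genes, 702 (53.8%) were still lower and 52 higher. The recovery group of that day gave similar counts against the same 16 °C group, with 866 of the higher genes higher and 685 of the lower genes lower, where 17.8% and 20.1% of all tested genes were. At 16 °C, 595 of the 1755 higher genes were 2-fold above their day 15 value on day 22 and 2 were below it, against 6.26% and 5.63% of all tested genes. At 26 °C, 501 were above and 461 below over the same days, against 15.9% and 24.6%. These counts share the day 15 groups that chose the genes. The genes that turned included strong day 15 responders. Bo3g005180 was at 1.82 TPM cool and 131 TPM warm on day 15, and at 45.2 TPM and 19.0 TPM on day 22. Bo1g104990 went from 3.13 against 175 TPM to 43.2 against 7.04 TPM. In both, the 16 °C value was higher and the 26 °C value lower on day 22 than on day 15. In the other direction, Bo4g188260 was at 21.7 TPM cool and 1.81 TPM warm on day 15, and at 0.32 TPM and 4.94 TPM on day 22. Bo4g177700 went from 14.6 against 1.09 TPM to 1.59 against 6.74 TPM.

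The response was partly visible in the first days, in libraries of the other kit. On day 1, 258 of the higher genes (14.7%) were 2-fold higher at 26 °C, with a background of 7.04%, and on day 3, 465 (26.5%) were, with a background of 9.11%. Of the lower genes, 100 (7.66%) were lower on day 1, with a background of 2.24%, and 210 (16.1%) on day 3, with a background of 2.96%. Read from the earlier lists, 41.9% of the genes higher on day 3 and 58.2% of those lower on day 3 were in the day 15 list of the same direction. On day 7 these shares were 47.7% and 56.4%. The day 15 lists held 14.4% (higher) and 10.7% (lower) of all tested genes.

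The endosperm series labelled in hours did not keep this direction. At hour 1, 154 of the higher genes were higher at 26 °C and 140 lower, shares of 8.77% and 7.98% that lie near the background of 9.42% and 8.04%. At hour 24 the numbers were 262 (14.9%) and 201 (11.5%), against a background of 13.5% and 6.76%. At hour 72, 243 (13.8%) were higher and 380 (21.7%) lower, where 17.1% and 12.3% of all tested genes were. Of the genes lower on day 15, 6.74% were higher and 4.44% lower at hour 1, and 13.0% and 2.68% at hour 24. These genes were more often higher at hour 72, 313 (24.0%) against 58 (4.44%) lower. Many of them were low in this series, with 16 °C medians of 0.45, 0.60 and 1.25 on the log2(TPM + 1) scale at hours 1, 24 and 72. On this scale a gene below 1 TPM at 16 °C can be 2-fold higher but not 2-fold lower, so part of this imbalance is built in. The sources used here do not say when the hours begin, and the series title names seed development and germination.

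Bo4g190800 had the largest day 15 excess among the genes that were lower at 26 °C at hour 72. It was at 1.06 TPM cool and 59.0 TPM warm on day 15, and at 5421 TPM and 975 TPM at hour 72. In embryo on day 15 it was at 185.5 TPM cool and 2753 TPM warm. Bo5g020810 was at 1.02 TPM and 56.3 TPM on day 15, and at 13.2 TPM and 1.21 TPM at hour 72. Of the genes lower on day 15, Bo2g131820 was at 26.6 TPM cool and 85.1 TPM warm at hour 72, and Bo7g114380 at 0.03 TPM and 7.95 TPM.

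**Figure D5:**
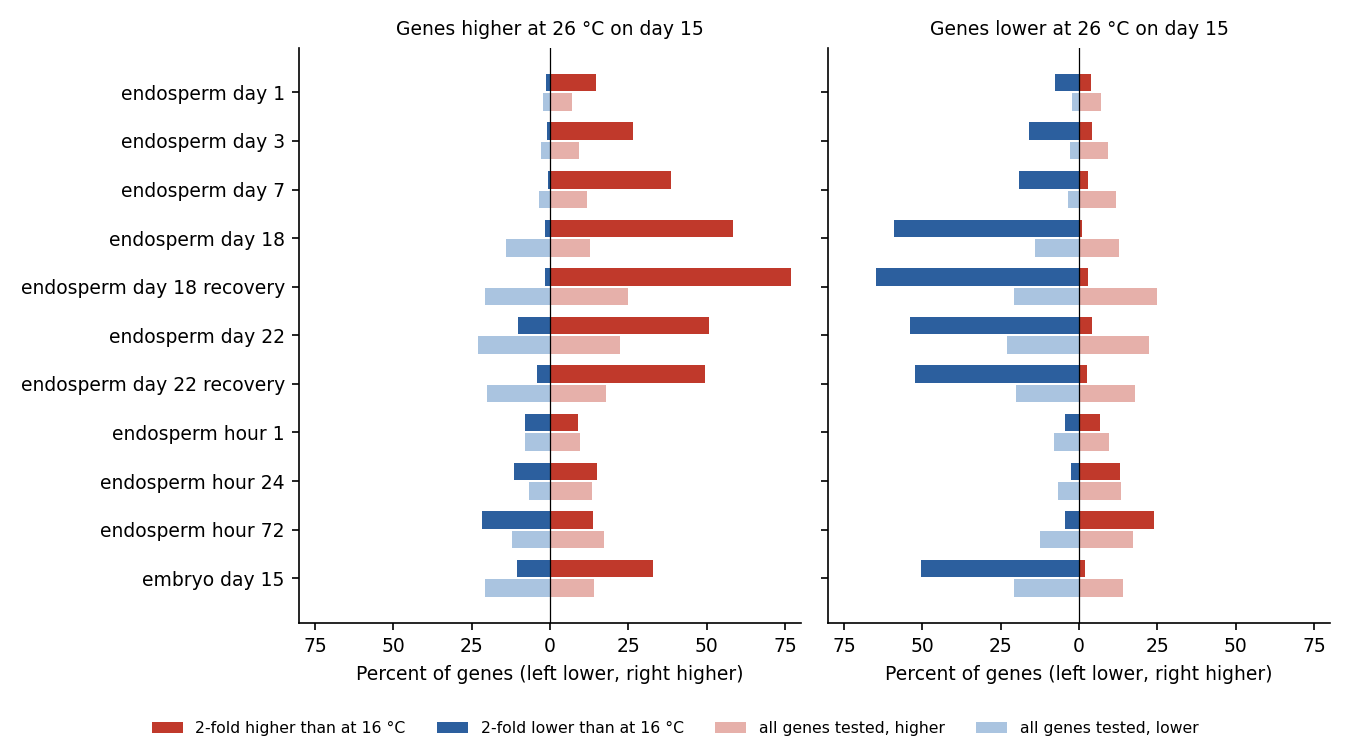
Percent of the genes higher (left panel) and lower (right panel) at 26 °C on day 15 that were 2-fold higher (red, to the right) or lower (blue, to the left) than at 16 °C in other groups; pale bars give the same for all genes tested. On days 1 to 22 and in embryo the dark bars reach beyond the pale ones in the direction of day 15, and at hour 72 they reach beyond them in the opposite direction, at 21.7% against 12.3% and 24.0% against 17.1%.

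Embryos of the same day were compared for the 6309 genes that were listed in both tables and reached 1 TPM in at least 1 embryo group of day 15. Of these, 869 (13.8%) were higher and 655 (10.4%) lower in warm endosperm, and 877 (13.9%) were higher and 1313 (20.8%) lower in warm embryo. The tissues shared 286 higher genes, which is 32.9% of the endosperm list and 32.6% of the embryo list. They shared 330 lower genes, which is 50.4% and 25.1%. The kits differ between the tissues, and about as many genes could not be compared: 886 of the higher and 650 of the lower endosperm genes were not among the 6309.

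Of the genes lower in both tissues, Bo7g114380 was at 529 TPM cool and 11.7 TPM warm in endosperm, and at 1.72 TPM and 0.02 TPM in embryo. Bo2g038930 was at 391 TPM and 14.7 TPM in endosperm, and at 7.82 TPM and 0.40 TPM in embryo. Of the genes higher in both tissues, Bo9g026030 and Bo3g023540 had the largest endosperm differences. In embryo they were low, at 4.81 TPM and 1.48 TPM at 26 °C against 0.17 TPM and 0.04 TPM at 16 °C, in libraries of the other kit.

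In opposite directions, 91 genes were higher in endosperm and lower in embryo, which is 10.5% of the 869 against 20.8% of all 6309. The reverse held for 12 genes, which is 1.83% of the 655 against 13.9%. Median centring, which removes the downward shift of -0.33 of the median embryo gene, made these numbers 58 and 28. Bo8g101110 was at 40.1 TPM cool and 469 TPM warm in endosperm, and at 22.7 TPM and 2.51 TPM in embryo. In endosperm it was also higher at 26 °C on days 1, 3, 7, 18 (in both groups) and 22, for example at 151 against 40.6 TPM on day 7. Bo9g029040 was at 0.18 TPM and 17.0 TPM in endosperm, and at 4.74 TPM and 1.77 TPM in embryo. Bo1g139730 went the other way, at 809 TPM and 211 TPM in endosperm and at 97.9 TPM and 247 TPM in embryo. Bo01074s050 was at 36.8 TPM and 5.67 TPM in endosperm, and at 6.08 TPM and 13.5 TPM in embryo.

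Many transcripts abundant in embryo were higher in warm endosperm on day 15. Of the 37 genes at 1000 TPM or more in both embryo groups of day 15, 35 were listed for endosperm, and 20 of these were 2-fold higher and 2 lower in warm endosperm, where 14.4% and 10.7% of all tested genes were. That background is not matched for abundance. For endosperm genes with a mean of 100 TPM or more it was 20.9% and 16.4%. Across kits and separately made tables, the endosperm value of the 35 genes was a median of 5.08% of the embryo value at 16 °C and 12.5% at 26 °C. Summed, they held 4.03% of endosperm TPM at 16 °C and 4.36% at 26 °C. Their part in the result was not tested.

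Called genes were also set out by their identifiers. By the number from 1 to 9 after the letters Bo, the share of higher genes ran from 12.2% to 16.3% and that of lower genes from 9.24% to 11.5%. Of the 3253 pairs of tested genes whose identifiers are numbered 10 apart, 98 were both higher, 62 both lower and 84 opposite. When the first of a pair was higher, the second was too in 20.2% of pairs, against 13.9% over all pairs. For lower genes the shares were 18.02% and 11.1%, so neighbouring identifiers shared a direction more often than all pairs in this count, which was not tested. Near-identical copies could share reads, and the sources used here do not say how the counting treated them.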

How the data were processed

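The authors deposited TPM in 1 table per tissue with 1 column per group, so libraries could not be treated separately. The submitters' processing notes name cutadapt 1.9.1, STAR 2.5 and featureCounts. The sources used here do not give the genome build, the annotation, the way libraries were combined or the rule for listing genes. File names speak of differentially expressed genes, so the shares of genes given refer to a selected list. The listed values held 69.6% of TPM at 16 °C and 71.8% at 26 °C on day 15.

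Values were used as deposited. Differences were taken on log2(TPM + 1) and counted at 2-fold or more over genes at 1 TPM or more in either day 15 group; the same 12195 genes served for the other endosperm comparisons, and 1 TPM in an embryo group was also required in embryo. No test was possible with 1 value per group. Named identifiers were at most 2 higher and 2 lower per comparison or gene set, by the largest day 15 difference with at least 5 TPM in the higher group, plus the top 5 of each day 15 group; the 7 genes listed at 0 in 1 group were named outside this rule, after their values were seen. The members, lists and named identifiers were chosen with earlier results of these data known. The counting step was tested on simulated data. Alternatives were a pseudocount of 0.1, a limit of 5 TPM or none, median centring, equal group medians (added after seeing the data), rescaling without the 10 most abundant genes of either group, and 4-fold. Python 3.11.15, numpy 2.4.6, pandas 2.3.3 and matplotlib 3.10.9 were used.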

Additional observations from a re-analysis of the deposited data

Results flagged for a closer look

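On day 15, 91 genes were 2-fold higher at 26 °C in endosperm and 2-fold lower in embryo, and 12 were the reverse. These are 10.5% of the 869 higher genes, where 20.8% of all 6309 genes compared were lower in embryo, and 1.83% of the 655 lower genes, where 13.9% were higher. With median centring the numbers were 58 and 28. The 91 and 12 genes were flagged because their direction differed between the tissues. Both shares lie below those of all genes compared, so opposite directions were rarer than the background. With 1 value per group this difference was not tested.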

How the results depend on the processing

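No paired analysis was possible because the deposited tables hold 1 value per group, and for the same reason no library could be left out. Results were recomputed 340 times over 7 alternatives; 292 values stayed within 1.5 times, or on the same side of the 2-fold limit in the case of single identifiers, and no named identifier changed direction. Rescaling without the most abundant genes gives no value for the named identifiers it removes. The day 15 counts stayed within 1.5 times under every alternative except the 4-fold limit (507 higher, 222 lower). With a pseudocount of 0.1 they were 2331 and 1821.

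The pseudocount of 0.1, which gives more weight to low values, moved 31 of 85 results, all upward. All tested genes then gave 1388 higher and 419 lower on day 1, 1765 and 571 on day 3, 694 lower on day 7, 2610 lower on day 18, 2231 and 1541 at hour 1, and 2628 and 1250 at hour 24. Higher day 15 genes that were also higher numbered 570, 897 and 1060 on days 1, 3 and 7, 395, 561 and 516 at hours 1, 24 and 72, and 476 in embryo. Lower genes that were also lower numbered 170, 355, 380 and 1188 on days 1, 3, 7 and 18, 1044 in recovery on day 22, 199, 131 and 139 at the 3 hours, and 541 in embryo. Opposite genes numbered 600 and 667 at hour 72, and 173 and 39 in embryo. Genes below the 16 °C range numbered 583.

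Median centring made the embryo counts 1464 higher and 725 lower, which turns their split, and the genes opposite between tissues 58 and 28. Rescaling without the 10 most abundant genes made the latter of these 19. Setting group medians equal, added after seeing the data, made the day 15 split 1483 and 1638 and the opposite genes 59 and 27. It gave 582 and 743 genes lower on days 3 and 7, and 154, 327 and 394 lower day 15 genes that were lower on days 1, 3 and 7. At hour 1 it gave 99 higher and 119 lower genes of the same direction, and at hour 24 it gave 70 lower ones. Which direction held more genes turned in several comparisons. With median centring it turned on day 18 at 26 °C (1537 higher and 1732 lower became 1848 and 1294), on day 22 at 26 °C (2897 and 2543) and on day 22 in recovery (2506 and 2021). With equal group medians it turned in day 18 recovery (3043 and 2527 became 2477 and 3362), on day 22 at 26 °C (2765 and 2757), at hour 1 (797 and 1337) and in embryo (1209 and 968). Without the 10 most abundant genes it turned on day 18 at 26 °C (1907 and 1801) and in recovery (2621 and 3493), and day 22 at 26 °C became 2236 and 3866. On days 1, 3 and 7 higher genes stayed the more numerous, at 652 against 380, 818 against 582 and 968 against 743 with equal group medians, and at hour 24 at 1276 against 1211. The cause of these shifts was not tested.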
